A study of Macaca mulatta with 25 samples.

Results

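MUC15, a mucin anchored in the cell membrane, and ST6GALNAC1, a sialyltransferase that acts on mucins, were followed in the rhesus macaque cervix during treatment with estradiol and progesterone. They are 2 of the 15534 genes with 1 symbol on the array. The pair was chosen by its measured signal, which was higher after 1 day of progesterone than with estradiol alone, so the levels in these groups are given as a description, with no test. The array holds 1 probe set for each gene, 13649452 for MUC15 and 13681661 for ST6GALNAC1.

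Mucins are proteins whose long stretches of serine and threonine carry dense O-linked sugar chains. Secreted mucins form the gel of cervical mucus, while membrane mucins such as MUC15 stay on the apical cell surface as part of the glycocalyx. O-glycan synthesis starts in the Golgi when a GALNT enzyme puts N-acetylgalactosamine on the protein, and the chain is then extended with galactose or closed with sialic acid. ST6GALNAC1 adds a sialic acid to that first sugar, which gives the short sialyl-Tn antigen. Sialic acids lend mucus its negative charge, and the cervical epithelium is a target of both hormones, estradiol being linked to abundant thin mucus and progesterone to scant thick mucus.

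RNA came from frozen cervix taken at necropsy from 25 ovariectomized rhesus macaques, each a separate animal with 1 array. All animals carried an estradiol implant, and the E2 group of 5 had estradiol alone for 14 days. The other 4 groups of 5 also carried a progesterone implant. It was in place for 1 day in E+1P and for 3 days in E+3P, for 7 days in the E+7P animals and for 14 days in the E+14P animals. How long estradiol had been given before that is not labelled, so a longer estradiol exposure cannot be told apart from progesterone. Ovariectomy removes the animals' own ovarian cycle, so the groups model hormone exposure and not a natural cycle.

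Values are log2 signals as deposited, on which 1 unit is a doubling, and array medians lay between 5.502 and 5.604. The tissue was whole cervix, so fewer cells of a type and less RNA per cell cannot be told apart. Markers of cervical cell types were present. The mean signal reached the median of all probe sets for 17 of 19 columnar epithelium markers, 7 of 11 squamous, 15 of 16 ciliated cell and 13 of 13 smooth muscle markers. FKBP5, a gene known to be induced through the progesterone receptor, averaged 5.68 ± 0.36 (SD, n = 5) in E2 and between 7.17 and 8.06 in the progesterone groups. PGR, the progesterone receptor itself, averaged 10.75 ± 0.19 in E2 and between 9.19 and 9.99 with progesterone. On 3 arrays the epithelial markers stood apart by over 4 scaled median absolute deviations. E+3P replicate 2 was low in columnar and ciliated markers. It was also high in endothelium markers, by 8.56 scaled median absolute deviations. E+3P replicate 3 was high in squamous and low in ciliated markers, and E+14P replicate 4 was low in ciliated markers. Many results that rest on these outlying arrays are given with and without them. Counts of called cell type markers and rankings of genes by correlation are given with all arrays only.

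MUC15 had log2 signals of 6.37, 7.05, 7.61, 5.83 and 7.79 on the 5 E2 arrays. On the 5 E+1P arrays it had 9.86, 8.42, 10.21, 10.50 and 9.10. Every E+1P array lay above every E2 array, with no overlap. The means were 6.93 ± 0.83 in E2 and 9.62 ± 0.85 in E+1P (SD, n = 5 each), a log2 difference of 2.69 (SE 0.67), or 6.43-fold. Across the array, 3.1% of the 40489 probe sets had every E+1P array above every E2 array, and 2.32% were called different, meaning an adjusted p below 0.05 in limma. Nothing is read from these shares for MUC15, since this comparison picked it.

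The MUC15 signal on the E+3P arrays was 5.89, 3.70, 8.20, 7.60 and 8.62, the widest spread of the 5 groups. The lowest value of all 25 arrays, 3.70, came from E+3P replicate 2, which is also the array lowest in columnar markers. The E+3P mean was 6.80 ± 2.02, or 7.37 ± 1.38 (n = 3) when both outlying E+3P arrays were left out. E+7P arrays had 7.72, 7.06, 8.06, 8.96 and 7.76, with a mean of 7.91 ± 0.69. E+14P arrays had 6.73, 7.89, 7.48, 7.27 and 8.42, with a mean of 7.56 ± 0.64. At each of the 3 later times, 2 of 5 arrays lay above every E2 array.

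The order of MUC15 means was E+1P, E+7P, E+14P, E2 and E+3P. The ranges of neighbouring groups in that order overlapped at every step, including E+1P with E+7P, where 1 E+7P array (8.96) exceeded the lowest E+1P array (8.42). Of the 5 E+1P arrays, 4 lay above all 20 others. The share of probe sets with such a pattern was not counted, and nothing is read from it for a gene picked by its E+1P signal. In E+3P, 4 of 5 arrays lay below every E+1P array, and the mean was lower by 2.81 on the log2 scale than in E+1P, a difference given as a description. For that comparison 4.42% of probe sets were called and 2.67% had every E+3P array below every E+1P array.

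ST6GALNAC1 had log2 signals of 7.90, 7.47, 6.004, 8.07 and 8.40 on the E2 arrays. On the E+1P arrays it had 9.87, 9.58, 9.90, 9.72 and 10.00, a narrow band. The lowest E+1P array (9.58) lay above the highest of all 20 other arrays (8.51). How many probe sets separate E+1P from all others in this way was not counted. Against E2 alone, 3.1% of all probe sets had every E+1P array above every E2 array. Nothing is read from this for ST6GALNAC1, since that comparison picked it. The means were 7.57 ± 0.94 in E2 and 9.81 ± 0.16 in E+1P (SD, n = 5 each), a log2 difference of 2.24 (SE 0.54), or 4.74-fold, again with no test.

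ST6GALNAC1 then had 6.92, 4.85, 5.71, 8.51 and 8.42 on the E+3P arrays. The pair of lowest values came from the 2 outlying E+3P arrays. The E+3P mean was 6.88 ± 1.62 with all 5 arrays and 7.95 ± 0.89 with the other 3, so the difference from E2 was -0.69 with them and 0.38 without them. E+7P arrays had 7.25, 6.82, 7.67, 7.79 and 7.94, with a mean of 7.49 ± 0.46. E+14P arrays had 7.70, 6.58, 7.52, 6.25 and 6.38, with a mean of 6.89 ± 0.67. No E+7P or E+14P array lay above the highest E2 array, and none lay below the lowest.

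The order of ST6GALNAC1 means was E+1P, E2, E+7P, E+14P and E+3P. E+1P was apart from its neighbour, and the ranges of all other neighbours overlapped. Every E+3P array lay below every E+1P array, as for 2.67% of all probe sets. The ST6GALNAC1 mean was lower by 2.93 on the log2 scale, or by 1.86 without the outlying arrays. For both genes the E+1P mean was the highest and the E+3P mean the lowest of the 5 groups. Without the outlying arrays, the lowest mean was that of E2 for MUC15 and that of E+14P for ST6GALNAC1.

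**Figure D1:**
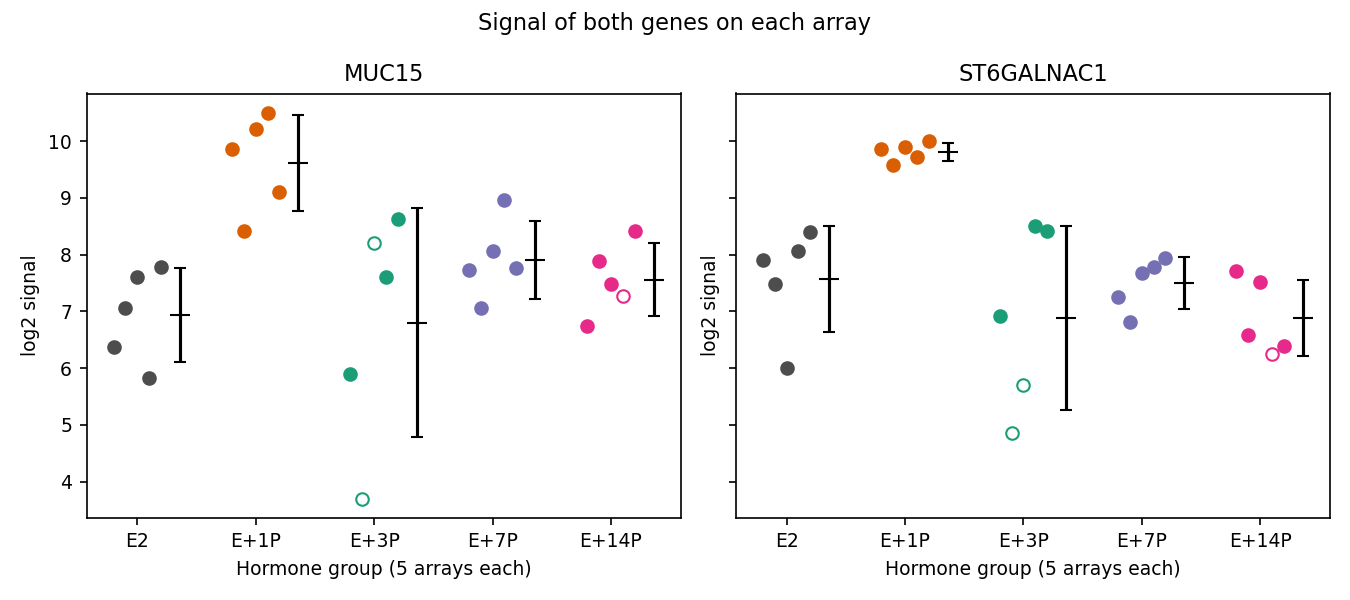
Log2 signal of MUC15 and ST6GALNAC1 (vertical axis) on each of the 5 arrays per hormone group (horizontal axis). Points are arrays, open points the 3 outlying arrays in epithelial markers, and bars the mean with 1 SD. The E+1P arrays of ST6GALNAC1 sit between 9.58 and 10.00, above all others, and those of MUC15 between 8.42 and 10.50.

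In comparisons among E+3P, E+7P and E+14P, the group means use none of the arrays that picked the genes. These comparisons were tested with limma, adjusted over all 40489 probe sets. The spread was estimated from the arrays of all groups, so the SEs and p values also draw on the arrays that picked the genes. In limma fits of the compared groups alone, which leave those arrays out, neither gene passed in any of these comparisons (lowest adjusted p = 0.68). MUC15 was higher by 1.11 (SE 0.67) on the log2 scale in E+7P than in E+3P, which did not pass (adjusted p = 0.53), and by 0.54 without the outlying arrays or 0.26 with the columnar, squamous and smooth muscle marker means as covariates. It was lower by 0.35 in E+14P than in E+7P (log2 difference -0.35, adjusted p = 0.99). From E+3P to E+14P the MUC15 difference was 0.76 (adjusted p = 0.68), or 0.26 without the outlying arrays and -0.0063 with the covariates. ST6GALNAC1 differed by 0.61 (SE 0.54) between E+7P and E+3P (adjusted p = 0.67) and by -0.61 between E+14P and E+7P (adjusted p = 0.99). Without the outlying arrays, the first of these turned to -0.46, and with the covariates they were -0.61 and 0.12. Over all probe sets, 0.00494% were called between E+7P and E+3P, and 0% between E+14P and E+7P and between E+14P and E+3P. At an unadjusted p below 0.05 the last 2 comparisons held 1729 and 4816 probe sets.

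Whether the genes changed by the same amount was examined on the difference MUC15 minus ST6GALNAC1 within each array. The levels of different probe sets cannot be set against each other, but a shift of this difference between groups shows an unequal change in signal. Whether the 2 probe sets respond alike to a change in RNA was not tested. The mean difference was -0.64 ± 1.45 in E2, -0.20 ± 0.82 in E+1P, -0.08 ± 1.54 in E+3P, 0.42 ± 0.49 in E+7P and 0.67 ± 1.18 in E+14P (log2, SD, n = 5 each). As a description, the MUC15 change exceeded that of ST6GALNAC1 by 0.44 (SE 0.75) from E2 to E+1P and by 1.31 (SE 0.84) from E2 to E+14P. No p value is given for these, since they hold arrays that served to pick the genes. An exact permutation test was computed for all 7 differences, and only the steps among the later groups are reported. The adjustment over the 7 therefore also draws on arrays that picked the genes. The MUC15 change was larger by 0.49 (SE 0.72) from E+3P to E+7P and by 0.26 (SE 0.57) from E+7P to E+14P, and neither passed the exact two-sided permutation test (p = 0.51 and 0.67, adjusted p = 0.78 for both over 7 differences computed). The smallest p that 5 arrays against 5 can give is 0.0079.

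**Figure D2:**
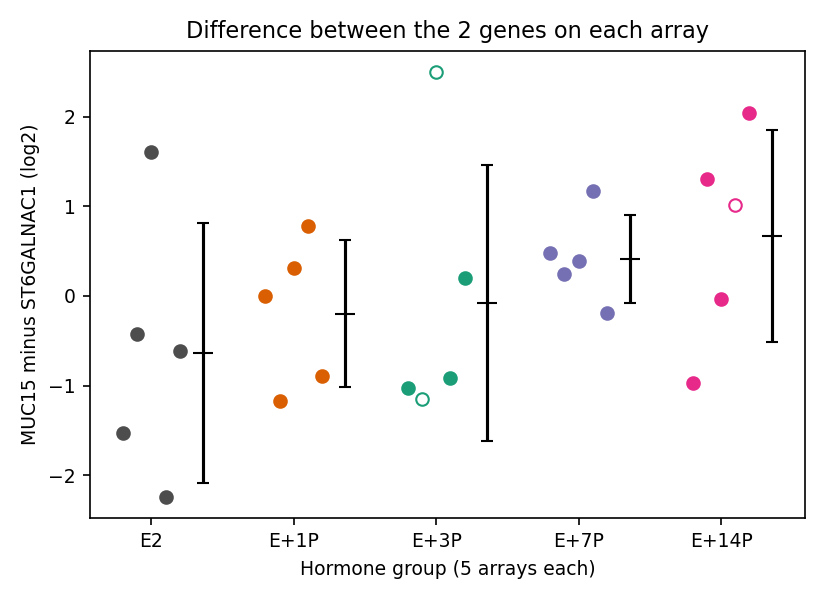
Log2 signal of MUC15 minus that of ST6GALNAC1 on each array (vertical axis) by hormone group (horizontal axis, 5 arrays each). Points are arrays, open points the outlying arrays, and bars the mean with 1 SD. The means run from -0.64 in E2 to 0.67 in E+14P, and the groups overlap throughout.

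Within groups, the 2 genes did not vary together past the threshold. The deviations tested here and below include the E2 and E+1P arrays that picked the genes. Removal of group means takes out the group difference, but the p values still draw on the spread of those arrays. After removal of group means, their deviations correlated over the 25 arrays with Pearson's r = 0.37 and Spearman's rho = 0.14 (permutation p = 0.31 and 0.58). The adjusted p over 9 relations was 0.40 for r and 0.58 for rho, and without the pair of arrays farthest out in ST6GALNAC1 r was 0.10. An example is E+3P replicate 3, high in squamous markers, where MUC15 was 8.20 and ST6GALNAC1 was 5.71.

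ST6GALNAC1 deviations went with the mean signal of the columnar epithelium markers (r = 0.80, rho = 0.72, permutation p = 0.00016 and 0.0012, adjusted p = 0.0014 for r and 0.011 for rho). Without the 2 arrays farthest out in the columnar mean r was 0.71 (permutation p = 0.0032), and without the 3 outlying arrays it was 0.65 (adjusted p = 0.022). They went against the smooth muscle markers (r = -0.68, rho = -0.64, permutation p = 0.0024 and 0.0039, adjusted p = 0.011 for r and 0.018 for rho), with r = -0.60 without the 2 farthest arrays and -0.70 without the outlying arrays. MUC15 deviations had r = 0.72 and rho = 0.44 with the columnar markers (permutation p = 0.020 and 0.058, adjusted p = 0.059 for r and 0.13 for rho). That relation rested on E+3P replicates 2 and 5, without which r was 0.25. Without the 3 outlying arrays r was 0.54 (adjusted p = 0.15), and the relation passed without any one of 7 other arrays (lowest adjusted p = 0.029). MUC15 had r = -0.51 and rho = -0.45 with smooth muscle markers (permutation p = 0.038 and 0.046, adjusted p = 0.086 for r and 0.13 for rho). This relation passed without replicate 1 or 2 of E+14P or replicate 3 of E2 (lowest adjusted p = 0.037). Relations of either gene with squamous and ciliated markers did not pass (adjusted p between 0.17 and 0.49). With ciliated markers, MUC15 passed without E+3P replicate 3 (adjusted p = 0.030) and ST6GALNAC1 without E2 replicate 3 (adjusted p = 0.037), and without all 3 outlying arrays neither did (adjusted p = 0.15 and 0.62).

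**Figure D3:**
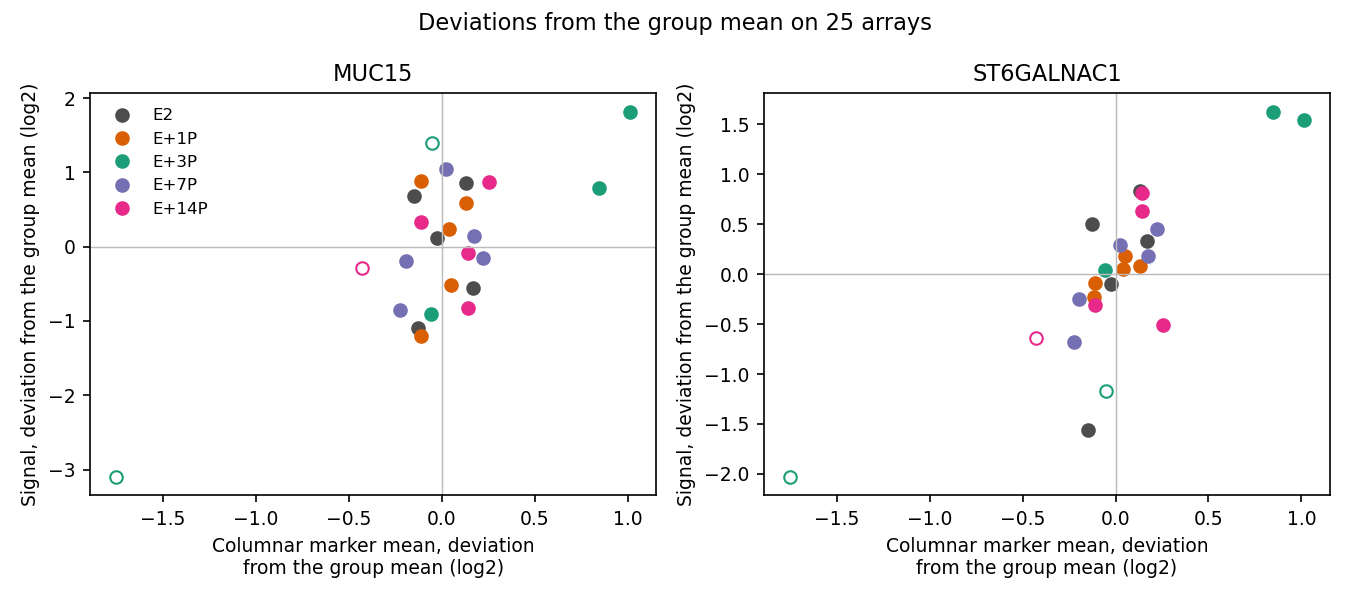
Deviation of the MUC15 and ST6GALNAC1 log2 signal from the group mean (vertical axes) against that of the columnar marker mean (horizontal axes) on 25 arrays, coloured by group, with open points for the outlying arrays. ST6GALNAC1 follows the columnar mean (r = 0.80), while for MUC15 (r = 0.72) r is 0.25 without 2 arrays.

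The mean of the columnar markers differed little from E2 in E+1P, where the 2 genes were highest, and 14 of 19 markers were higher. Their mean was 7.41 ± 0.14 in E2 and 7.51 ± 0.11 in E+1P (log2, SD, n = 5), with a median log2 difference of 0.25. In limma 0 of 19 columnar genes were called, and 4 had an unadjusted p below 0.05 (13.3% of all probe sets). With the columnar, squamous and smooth muscle means as covariates, the E+1P minus E2 difference was 2.42 for MUC15 and 2.08 for ST6GALNAC1. In E+3P the columnar mean was 6.62 ± 1.10, from 4.86 to 7.63, beside the low values of both genes on E+3P replicate 2. With the same covariates the E+3P minus E+1P difference was -1.44 for each gene. Smooth muscle markers averaged 7.34 ± 0.73 in E2, 6.93 ± 0.50 in E+1P and 8.46 ± 1.15 in E+3P. From E2 to E+1P only 1 of 13 smooth muscle markers was higher (median log2 difference -0.38, 0 called). Of the squamous markers 10 of 11 were higher (median 0.33, 0 called). The part of tissue makeup in the higher E+1P and the lower E+3P levels was not tested beyond these values.

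The other genes of the pathway came from 8 lists of mucins, mucus proteins and O-glycan and sialic acid enzymes. Of their 108 entries 85 were measured, the 2 genes included. Among the other 83, 2 were called between E+1P and E2 (2.41%, against 2.32% of all probe sets), which is the background share. Some other fits gave shares above the background. Without the outlying arrays 5 were called (6.02%, against 3.24%), and with the covariates 7 (8.43%, against 3.83%). In a fit of the compared groups alone 9 were called (10.8%, against 3.26%), and with array weights 7 (8.43%, against 4.91%). GALNT5, an enzyme that starts O-glycans, fell from 8.43 ± 0.97 in E2 to 6.50 ± 0.22 in E+1P (log2 difference -1.93, SE 0.37, adjusted p = 0.0040). CASD1, which O-acetylates sialic acid, rose from 7.63 ± 0.15 to 8.16 ± 0.09 (0.53, SE 0.12, adjusted p = 0.022), a call lost on leaving out any one of 4 arrays, namely replicates 3 and 5 of E+1P and 4 and 5 of E2 (highest adjusted p = 0.069). Without E2 replicate 3, 4 of the listed genes were called (4.82%, against 2.38%).

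None of the other 14 measured sialyltransferases was called in limma between E+1P and E2, and 1 had an unadjusted p below 0.05 (2.32% and 13.3% of all probe sets). That one, ST3GAL6, which caps galactose with sialic acid, averaged 6.99 ± 0.20 in E2 and 8.06 ± 0.39 in E+1P (difference 1.07, SE 0.33, adjusted p = 0.094). The list's median difference was 0.0063, against 0.0067 over all probe sets. None of the other 5 membrane mucins was called either, with 0 below an unadjusted p of 0.05. MUC1, the best known of them, averaged 9.48 ± 0.26 in E2 and 10.57 ± 0.38 in E+1P (1.09, SE 0.54, adjusted p = 0.39). MUC16 averaged 9.57 ± 0.40 and 9.37 ± 0.41, and MUC20 8.61 ± 0.52 and 7.68 ± 0.49, without a call.

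Secreted mucins and mucus proteins had no call between E+1P and E2 among 7 and 15 genes (0 and 3 with an unadjusted p below 0.05, against 13.3% of all probe sets). SPDEF, a transcription factor of mucus-secreting cells, had 6.49 ± 0.20 in E2 and 7.14 ± 0.18 in E+1P (0.65, SE 0.19, adjusted p = 0.085). Of the 6 sialic acid supply genes, CMAH, which converts sialic acid to its glycolyl form in macaques, had 7.58 ± 0.76 and 8.63 ± 0.58 (1.05, adjusted p = 0.14). B4GALT1, a galactosyltransferase of chain extension, had 7.87 ± 0.51 and 8.45 ± 0.19 (0.59, adjusted p = 0.074). Other genes went the other way. B4GALT4, on the same list as B4GALT1, had 7.77 ± 0.47 and 6.85 ± 0.19 (-0.92, adjusted p = 0.063). DMBT1, on the mucus protein list, had 7.80 ± 1.22 and 6.51 ± 0.51 (-1.29, adjusted p = 0.14). In the list of B4GALT1, 7 of 15 genes were higher (median log2 difference -0.071). These genes had smaller differences than MUC15 and ST6GALNAC1, which were chosen for theirs.

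**Figure D4:**
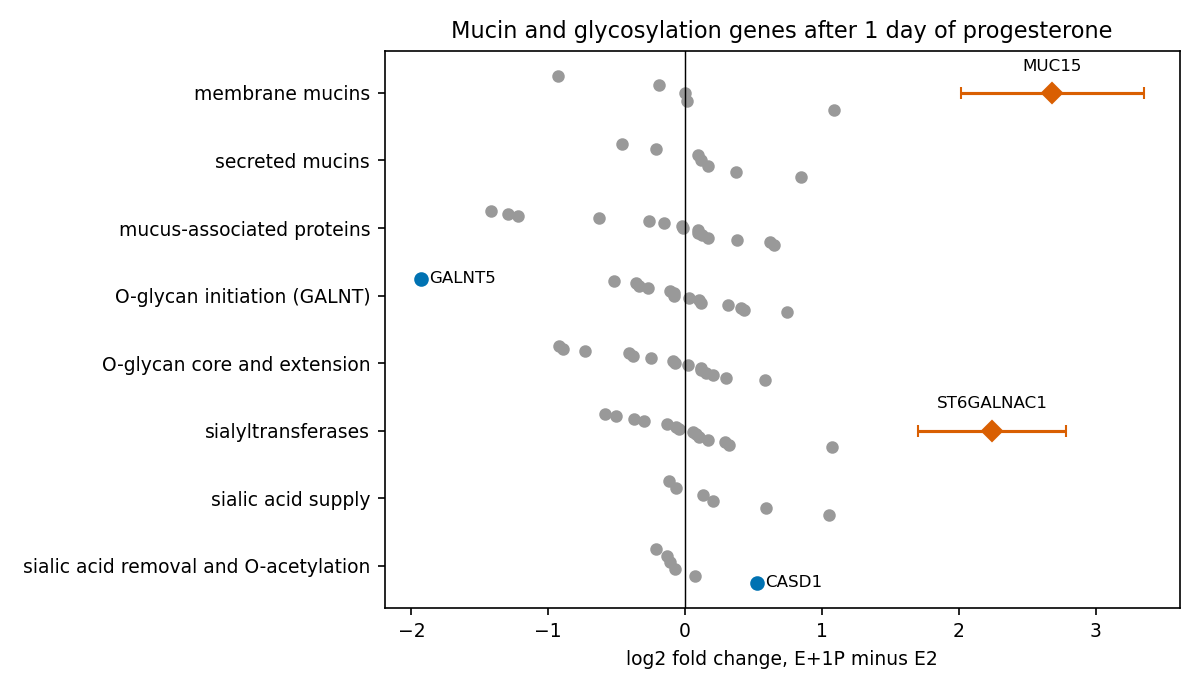
Log2 difference between E+1P and E2 (horizontal axis) of the measured genes of 8 mucin and glycosylation lists (rows). Grey points passed no test, blue points (GALNT5 and CASD1) had an adjusted p below 0.05 in limma, and orange diamonds are MUC15 and ST6GALNAC1 with 1 SE, shown untested.

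Between E+1P and E+3P, where both genes were lower, 14 of the 83 listed genes were called (16.9%, against 4.42% of all probe sets), 2 higher and 12 lower (14.5% lower, against 3.01%). Without the outlying arrays 5 of the listed genes were called (6.02%, against 1.27%), and with the 3 covariates 4 (4.82%, against 1.21%). Leaving out E+1P replicate 3 or E+3P replicate 2 alone left 8 (9.64%, against 2.08% and 2.17%). SPDEF fell to 5.63 ± 0.42 in E+3P (difference -1.51, SE 0.19, adjusted p = 6.9e-05). CASD1 fell to 7.20 ± 0.36 (-0.96, SE 0.12, adjusted p = 7.1e-05). B4GALT1 fell to 7.41 ± 0.16 (-1.05, SE 0.17, adjusted p = 0.00083). For these 3 genes the calls also passed without the outlying arrays and with the covariates.

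CMAH fell to 6.72 ± 0.45 (-1.91, SE 0.35, adjusted p = 0.0028), with an adjusted p of 0.041 when the outlying arrays were left out and 0.055 with the covariates. GALNT3, which starts O-glycans, fell from 8.79 ± 0.35 to 6.58 ± 1.53 (-2.21, SE 0.43, adjusted p = 0.0039), with -1.48 without the outlying arrays (adjusted p = 0.0067) and -1.02 with the covariates (adjusted p = 0.0047). This call was lost in a fit of the compared groups alone (adjusted p = 0.12). MUC1 fell from 10.57 to 8.41 ± 1.88 (-2.16, SE 0.54, adjusted p = 0.024), and its difference without those arrays was -1.17 (adjusted p = 0.11). The sialomucin CD164 fell by 0.47 (adjusted p = 0.035), with -0.28 (adjusted p = 0.31) without them. SIAE, which removes acetyl groups from sialic acid, fell by 0.70 (adjusted p = 0.025), with an adjusted p of 0.14 without them. ST8SIA1, a sialyltransferase of gangliosides, rose by 0.42 (adjusted p = 0.032), with an adjusted p of 0.23 without them. The calls of MUC1, CD164, SIAE and ST8SIA1 were also lost without some single arrays (highest adjusted p = 0.066, 0.12, 0.085 and 0.10).

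**Figure D5:**
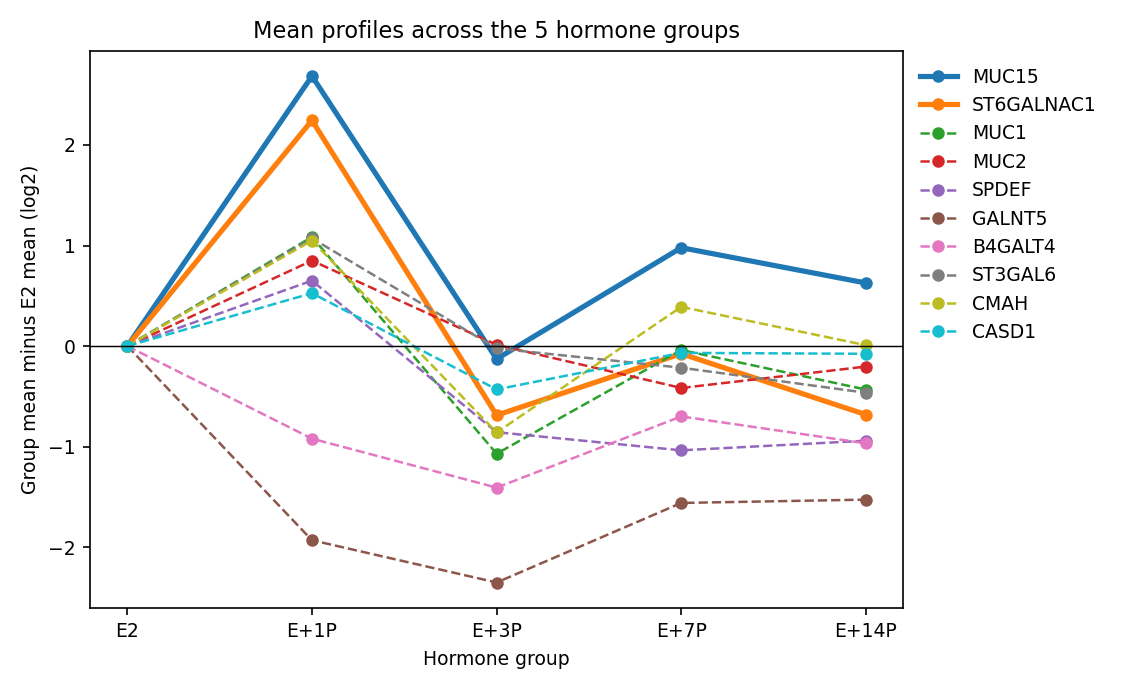
Group mean minus the E2 mean (vertical axis, log2) of MUC15 and ST6GALNAC1 (solid lines) and of listed genes (dashed lines) across the 5 hormone groups (horizontal axis, not to scale in days). MUC15 and ST6GALNAC1 stand at 2.69 and 2.24 in E+1P and near or below 0 in E+3P, whereas GALNT5 is below 0 in every progesterone group.

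Against E2, the listed genes that changed later mostly fell. In E+3P 16 of 83 were called (19.3%, against 10.4% of all probe sets), 1 higher and 15 lower (18.1% lower, against 5.34%), with 9 left without the outlying arrays (10.8%, against 4.67%) and 10 without E+3P replicate 2 alone (12.0%, against 6.40%). In E+7P 7 were called (8.43%, against 4.19%), 1 higher and 6 lower (7.23% lower, against 2.36%), with 11 called without the outlying arrays (13.3%, against 5.24%) and 12 without E2 replicate 3 (14.5%, against 4.19%). In E+14P 8 were called, all lower (9.64%, against 3.77% called and 2.29% lower over the array). Leaving out replicate 4 of E+14P, or 1 of the E2 replicates 1, 2 and 4, left 5 (6.02%, against 2.13% to 2.60%). Leaving out E2 replicate 3 gave 13 (15.7%, against 3.69%).

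Markers of other cell types at the same times are given beside the shares of all probe sets. Of all probe sets 10.4%, 4.19% and 3.77% were called in E+3P, E+7P and E+14P (5.34%, 2.36% and 2.29% lower). At an unadjusted p below 0.05 the shares were 27.3%, 17.1% and 17.1%. Ciliated markers had a median log2 difference from E2 of -1.31 in E+3P, -0.41 in E+7P and -0.96 in E+14P, with 5, 1 and 2 of 16 called lower and none higher. Of these 16, 14, 2 and 8 had an unadjusted p below 0.05 in limma. Columnar markers had medians of -0.76, -0.09 and -0.25, with 4 of 19 called lower and 2 higher in E+3P and 2 lower in E+14P. Of these 19, 10, 5 and 4 had an unadjusted p below 0.05. All 13 smooth muscle markers had higher means than in E2 in E+3P and E+14P (medians of 1.10 and 0.75), with 0 called in limma and 9 and 2 below an unadjusted p of 0.05. Squamous markers had medians of 0.75, -0.49 and 1.14, with 0 of 11 called and 0, 0 and 2 below an unadjusted p of 0.05. In E+14P the unadjusted counts of smooth muscle and squamous markers were near the share of all probe sets. Leukocyte markers had a median of 0.55 in E+14P, with 1 of 16 called higher and 7 below an unadjusted p of 0.05. Of endothelium markers 3 of 9 were called higher in E+3P, and 5 were below an unadjusted p of 0.05. The endothelium mean was 7.44 on E+3P replicate 2 and between 6.58 and 6.75 on the other E+3P arrays. How far these calls rest on that array was not tested. The part of these cell types in the changes of the listed genes was not tested beyond the covariate fit.

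OVGP1, a secreted mucin first described in the oviduct, fell at 3, 7 and 14 days (log2 differences of -3.73, -4.19 and -4.47, SE 0.74, adjusted p = 0.0037, 0.0019 and 0.0012). The call at 3 days was lost in a fit of the compared groups alone (adjusted p = 0.061). CLCA1, secreted by goblet cells, fell as well (-2.89, -4.91 and -3.79, SE 0.78, adjusted p = 0.022, 0.00079 and 0.0069). Its call at 3 days was lost without the outlying arrays (-2.27, adjusted p = 0.15), with the covariates (-1.87, adjusted p = 0.20), with array weights (adjusted p = 0.066) and with the compared groups alone (adjusted p = 0.054). Leaving out a single array (replicate 2 of E+3P, or replicate 1 or 5 of E2) ended it too, with adjusted p up to 0.068. AGR2, which helps fold mucins, fell by 3.22 in E+3P (adjusted p = 0.0020). Its difference was -1.96 without the outlying arrays (adjusted p = 0.0069) and -1.85 with the covariates (adjusted p = 0.0029), and with the compared groups alone the call was lost (adjusted p = 0.069).

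MUC15 differed from E2 by -0.13, 0.98 and 0.63 at the same times (SE 0.67) and ST6GALNAC1 by -0.69, -0.08 and -0.68 (SE 0.54), untested because E2 arrays served to pick them. In E+3P the differences turned to 0.44 and 0.38 without the outlying arrays and to 0.98 and 0.64 with the covariates. With the covariates ST6GALNAC1 also turned to 0.03 in E+7P and 0.15 in E+14P. GALNT5 was lower at all 3 times (log2 differences of -2.35, -1.56 and -1.53, adjusted p = 0.00054, 0.016 and 0.020). Its call at 7 days was lost without E2 replicate 2 (adjusted p = 0.053). At 14 days the call was lost with the compared groups alone (adjusted p = 0.077), without E+14P replicate 4 and without any one of E2 replicates 1, 2 and 4 (highest adjusted p = 0.069). GALNT15, another enzyme that starts O-glycans, rose in E+7P by 1.34 (SE 0.28, adjusted p = 0.0062). In E+7P against E+3P, E+14P against E+7P and E+14P against E+3P, 0 of 83 listed genes were called in limma, and 13, 4 and 11 had an unadjusted p below 0.05 (15.7%, 4.82% and 13.3%, against 11.1%, 4.27% and 11.9% of all probe sets).

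The genes whose signal was most like MUC15 over the 25 arrays were FAXDC2 (r = 0.85), CCDC28A (0.84), CNOT6L (0.83), RPS6KA1 (0.83), DDR1 (0.83) and SCNN1A (0.82), out of 9169 genes ranked by Pearson's r. Only genes with a mean signal at or above the median of all probe sets were ranked, here and below. SCNN1A, a subunit of the epithelial sodium channel, averaged 8.16 ± 0.29 in E2 and 9.50 ± 0.12 in E+1P. The lowest r belonged to KIRREL1 (-0.86), NRP1 (-0.85) and PSMD3 (-0.84). NRP1, a co-receptor for vascular growth factors, averaged 7.79 ± 0.38 in E2 and 6.67 ± 0.11 in E+1P. ST6GALNAC1 stood at rank 168 for MUC15 (r = 0.67).

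For ST6GALNAC1 the most alike were BCL2L14 (r = 0.93), PLLP (0.92), ICA1 (0.92), LRBA (0.91), LOC713693 (0.91) and BTG2 (0.91). PLLP, a membrane protein known from myelin and epithelia, averaged 7.26 ± 0.85 in E2 and 9.15 ± 0.23 in E+1P. BTG2, an inhibitor of cell proliferation, averaged 7.53 ± 0.34 and 9.09 ± 0.13. The lowest r belonged to PFKM (-0.85), PFKP (-0.85) and TMOD2 (-0.85), and MUC15 stood at rank 455. All arrays share the same group differences, so r is given as a description, with no test.

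Neighbouring genes were looked up in the RefSeq annotation of the rhesus assembly T2T-MMU8v2.0, since the build of the array is not given in the sources used here. MUC15 lies wholly inside ANO3, a gene of the anoctamin membrane protein family. ANO3 had 5.34 ± 0.42 in E2 and 6.07 ± 0.34 in E+1P, a difference of 0.73 (SE 0.24, adjusted p = 0.13), against 2.69 for MUC15. From E+1P to E+3P ANO3 differed by -0.79 (adjusted p = 0.061). Whether signal of overlapping transcripts is shared was not tested. SLC5A12, next to MUC15, differed by 0.25 between E+1P and E2 (adjusted p = 0.31). Next to ST6GALNAC1, its paralog ST6GALNAC2 differed by 0.29 (adjusted p = 0.78) and MXRA7 by 0.05 (adjusted p = 0.95).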

How the data were processed

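The deposited table holds log2 signals of 40489 probe sets on 25 whole-transcript rhesus arrays, 1 per animal, from amplified, biotin-labelled RNA of frozen cervix per the labels' protocols. Per the submitters' processing notes the authors used Affymetrix Expression Console, with no version; the normalization is not given in the sources used here. Sorted values of the arrays differed by at most 0.29 from their common mean. The number of arrays limits the precision, and no detection calls were used.

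Groups follow the array labels, although the design text of the series lists unequal sizes. Group differences were fitted with limma 3.58.1 (R 4.3.3; 1 coefficient per group, all 25 arrays, mean trend, two-sided, Benjamini-Hochberg over all probe sets, threshold 0.05), a fit checked on simulated data. Per-array differences were tested by exact permutation, with p values reported only where no E2 or E+1P arrays enter, a narrower use than planned. Within-group deviations were tested by 100000 permutations within groups. SDs are over animals, SEs from the fit, except those of the MUC15 minus ST6GALNAC1 difference, from the 2 groups' SDs.

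A gene is its probe set with the highest mean. Named were both genes, FKBP5 and PGR, per list called members up to 5 a comparison with E2 (or the 2 with the lowest p, of which some are left out for length), neighbours, and the 6 most and 3 least alike over all arrays (4 over deviations). For E+3P against E+1P, values are given for some of those named genes, chosen after their values were seen. The 2 genes and the lists were chosen with earlier results of these data known. Alternatives were quantile normalization, median centring, a filter at the 40th percentile of mean signal, no trend, array weights, compared groups alone, leaving out the outlying arrays (over 4 scaled median absolute deviations in an epithelial marker mean) or each array in turn, and 3 marker covariates.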

Additional observations from a re-analysis of the deposited data

How the results depend on the processing

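The E+1P minus E2 difference kept its direction and moved by less than the spread between arrays for both genes under every alternative run. With each array left out it ranged from 2.41 to 2.99 for MUC15 and from 1.85 to 2.45 for ST6GALNAC1. Every E+1P array lay above every E2 array, so leaving out arrays could not turn the direction. The fits without a trend, without dim probe sets or of the compared groups alone cannot change a difference of group means. This stability is a description and lends the rise no support. Of the results that answer a comparison, 214 stayed the same, 38 moved and 10 reversed under the alternatives other than leaving out single arrays, and of those of single listed genes 295 stayed and 63 lost the call. No paired analysis was possible because each array came from a different animal. Each gene has 1 probe set, so a mean of several could not be formed, and promoter and protein sequences were not analysed here. Signal over background is unknown. The cause of the shifts below was not tested, apart from the smaller number of arrays in some fits.

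With array weights 1986 probe sets (4.91%) and 7 of 83 listed genes (8.43%) were called between E+1P and E2 (938 and 2 in the fit reported). Between E+7P and E2 these were 2832 (6.99%) and 14 (16.9%). With the compared groups alone, listed genes called against E2 were 9 in E+1P (10.8%, against 3.26% of all probe sets), 4 in E+3P (4.82%, against 2.04%) and 11 in E+7P (13.3%, against 3.98%). For E+3P against E+1P 5 were called (6.02%, against 0.911%). Probe sets called there were 825 for E+3P and 924 for E+14P against E2 and 369 for E+3P against E+1P. Without the outlying arrays, listed genes called were 5 (E+1P), 9 (E+3P) and 11 (E+7P) against E2 and 5 for E+3P against E+1P, and probe sets were 1891 (E+3P against E2) and 515 (E+3P against E+1P). ST6GALNAC1 then differed by 0.38 (E+3P minus E2), -1.86 (E+3P minus E+1P), -0.46 (E+7P minus E+3P) and -0.90 (E+14P minus E+3P), the gap between the genes from E+1P to E+3P was -0.38, and the r of ST6GALNAC1 with ciliated markers was -0.22. With 3 marker covariates, probe sets called were 1549, 2439 and 2646 against E2 (1, 3 and 7 days), 488 for E+3P against E+1P and 2 for E+14P against E+3P. Listed genes called were 7, 9 and 13 against E2 (8.43%, 10.8% and 15.7%, against 3.83%, 6.02% and 6.54% of all probe sets). For E+3P against E+1P 4 were called (4.82%, against 1.21%). MUC15 then differed by -1.44 (E+3P minus E+1P) and -0.0063 (E+14P minus E+3P), and ST6GALNAC1 by 0.64 (E+3P minus E2), -1.44 (E+3P minus E+1P), -0.61 (E+7P minus E+3P), 0.12 (E+14P minus E+7P) and -0.50 (E+14P minus E+3P). The last was 0.0059 in the fit reported, -0.010 with quantile normalization and -0.26 with array weights. Between E+7P and E+3P the 2 probe sets called became 1 (quantile normalization, no variance trend, covariates), 4 (without dim probe sets) or 0 (array weights, groups alone, without the outlying arrays). Centring turned the split of called probe sets between higher and lower from 2051 and 2163 to 1351 and 2717 (E+3P minus E2), from 739 and 956 to 532 and 1172 (E+7P minus E2), and from 570 and 1220 to 400 and 1534 (E+3P minus E+1P).

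With each array left out, listed genes called ranged from 1 to 4, 10 to 24, 6 to 12 and 5 to 13 against E2 (1, 3, 7 and 14 days) and from 8 to 19 for E+3P against E+1P. Probe sets called ranged from 2592 to 5114, 1008 to 1696 and 862 to 1493 against E2 (3, 7 and 14 days), 842 to 3665 (E+3P against E+1P), 0 to 65 (E+7P against E+3P) and 0 to 23 (E+14P against E+3P). The E+14P minus E+3P difference ranged from -0.020 to 1.21 for MUC15, negative only without E+3P replicate 2, and from -0.50 to 0.41 for ST6GALNAC1. The gap between the genes ranged from -0.52 to 0.39 (E+1P to E+3P), -0.084 to 1.12 (E2 to E+3P) and -0.087 to 0.67 (E+7P to E+14P). Of these a test is reported only for the last, which did not pass. Deviation correlations of MUC15 ranged from -0.023 to 0.52 with ST6GALNAC1, 0.37 to 0.77 with columnar, 0.16 to 0.64 with ciliated and -0.61 to -0.40 with smooth muscle markers, and of ST6GALNAC1 with ciliated markers from 0.38 to 0.74. The columnar and smooth muscle relations of ST6GALNAC1 passed with any single array left out (r from 0.75 to 0.86 and from -0.75 to -0.61).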

Other observations

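Within groups, after removal of the group means, the genes most like MUC15 over the 25 arrays were CCDC34 (r = 0.84), GRHL2 (0.84), C19H19orf33 (0.83) and TEC (0.83). GRHL2 is a transcription factor of epithelial cells and one of the columnar markers used above. E+3P replicate 2, with MUC15 at 3.70 against a group mean of 6.80, enters every r of this ranking. For the columnar marker mean, r with MUC15 went from 0.72 to 0.25 without E+3P replicates 2 and 5. The rankings of both genes were not repeated without these or the outlying arrays. The most alike to ST6GALNAC1 were IAPP (r = 0.92), LMBR1 (0.91), MSLN (0.91) and TSPAN12 (0.91). MSLN, a surface protein of mesothelial and some epithelial cells, averaged 7.86 ± 1.02 in E2 and 8.52 ± 0.20 in E+1P. IAPP, best known as the islet peptide amylin, averaged 7.70 ± 2.22 in E2 and 8.17 ± 0.48 in E+1P, and its spread in E2 was wide, as was that of ST6GALNAC1. In this ranking of 9169 genes, ST6GALNAC1 stood at place 1499 for MUC15 and MUC15 at place 2066 for ST6GALNAC1.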
